A study of Schizosaccharomyces pombe with 37 samples.

Results

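In fission yeast (Schizosaccharomyces pombe), mug, meu and mde are names given to genes for a rise in their RNA during meiosis. All rows of the deposited expression table whose name is mug, meu or mde followed by a number were taken, which left out the antisense RNAs named after them. The rows were picked by name alone, so a gene that carries such a name for another reason would be included. This gave 126 of 6996 features: 94 mug, 24 meu and 8 mde genes. RNA had been sequenced from 9 mutant strains and from wt, with 3 libraries per strain, so 30 libraries in all. The tested strains carried yth1-R59C or pfs2-F115H (single residue changes in the poly(A) polymerase module of the cleavage and polyadenylation factor, CPF), or a kanMX replacement labelled ssu72Δ, dis2Δ, ppn1Δ or swd22Δ (subunits of its phosphatase module). In the remaining mutant strains CPF was intact and only the AAUAAA polyadenylation signal (PAS) of an ade6+ reporter was changed, to AAUUAA in the strain labelled PAS-T4A, to AAUGAA in PAS-T4C and to AAUCAA in PAS-T4G. The wt strain and every mutant shared the mating type h-, the alleles leu1-32, ura4-D18 and ade6-704, and the ade6+ reporter at trp1+. The pfs2-F115H allele was also marked with kanMX. All cells were haploid cultures of a single mating type, grown exponentially in rich medium (YES) at 30 °C, a condition in which meiosis is not induced.

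As background, mug stands for meiotically upregulated gene, meu for meiotic expression upregulated and mde for Mei4-dependent expression. Mei4 is the forkhead transcription factor that drives the middle genes of meiosis and sporulation, and it binds the FLEX element, whose core is GTAAACA. In vegetative cells, stray meiotic transcripts are removed by the RNA-binding protein Mmi1, which recognises repeated hexamers such as UUAAAC in the RNA and hands it to the nuclear exosome. Removal by Mmi1 is known to depend on polyadenylation. CPF cuts the nascent RNA behind the PAS and adds the poly(A) tail, and its phosphatases Ssu72 and Dis2 act on RNA polymerase II and its partners around the end of a gene.

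Between 1031965 and 6344396 reads were counted per library, so a level of 3 reads, the smallest taken as detectable, lay between 0.473 and 2.91 CPM (reads on a gene per 1000000 reads counted). This floor covers counting error only. The ssu72, dis2 and swd22 genes had 0 reads in all libraries of their own deletion strain. In the libraries labelled ppn1Δ, however, ppn1 had 79.9 ± 5.36 CPM, against 73.2 ± 9.07 CPM in wt (SD, n = 3), so the label goes against the reads and no change is credited to a loss of ppn1. The test was that of limma on log2(CPM + 1), each mutant against wt in a fit that held all 10 strains, and it covered the 5911 genes whose mean reached 1 CPM. A gene was called when it changed by 2-fold or more and its p, adjusted by the method of Benjamini and Hochberg, was under 0.05. With these RNA libraries of whole cultures, a change in RNA per cell and a change in the share of cells that express a gene cannot be told apart.

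Every member was found in the RefSeq annotation (assembly ASM294v3), 121 of them coding and 5 noncoding (meu3, meu11, meu16, meu19 and meu20). The promoters, taken as 250 bases before to 50 bases after the annotated start, were searched for GTAAACA on both strands. It was present in 64 of the 126 members (50.8%), against 843 of all 5111 coding genes (16.5%). By class it was present in 44 of 94 mug genes (46.8%), 14 of 24 meu genes (58.3%) and 6 of 8 mde genes (75.0%). At least 2 copies were present in 24 members (19.0%), against 2.03% of all coding genes. The core of the Ste11 box, TTCTTTGTT, was present in 2 members (1.59%), against 2.00% of all coding genes. A match is a description of the letters and not of binding.

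The windows that follow belong to members whose RNA was called in a CPF mutant or that carry the mde name. They are from RefSeq (ASM294v3) and are read along the gene's own strand, with the FLEX core in capitals. Where the core lies on the other strand its complement TGTTTAC is in capitals.
mug125, I:1087317-1087323, minus strand, 47 bases before the start: acatgataaGTAAACAgtgtttgtt
mug125, I:1087305-1087311, minus strand, 35 bases before the start: aacagtgttTGTTTACttttatgtt
meu14, II:4066281-4066287, plus strand, 13 bases before the start: ttctgaaacGTAAACAatcaacatg
meu14, II:4066237-4066243, plus strand, 57 bases before the start: ttgtgcttcTGTTTACaggcaaatc
mde5, I:2538392-2538398, plus strand, 50 bases before the start: tacaatgaaGTAAACAaaaaaaaac
mug28, I:1650951-1650957, plus strand, 61 bases before the start: gtaatttccTGTTTACttttgttta
mug135, III:113494-113500, minus strand, 69 bases before the start: gggttggctTGTTTACattgctcaa
meu6, II:454100-454106, plus strand, 61 bases before the start: cgatttgttTGTTTACattctcgcc
meu19, III:2418971-2418977, plus strand, 80 bases before the start: tgagtaaatGTAAACAaacctgact
meu3, III:42799-42805, minus strand, 77 bases before the start: tgagtaaatGTAAACAaacccgact
mde4, II:2632756-2632762, plus strand, 61 bases before the start: aattttgttTGTTTACgtatcttga
mde2, II:3764726-3764732, plus strand, 94 bases before the start: gagtttgttTGTTTACattccatac
The meu14 and mde5 promoters each held 3 cores and those of mug28, mug125, meu3 and meu19 held 2. The windows of meu3 and meu19 are nearly the same, and these noncoding RNAs are near-identical copies close to the ends of chromosome III, 42.0 and 33.1 kb from them. Only 37.8% and 38.7% of their 50-base stretches occur once in the genome, so their uniquely mapped reads are an uncertain measure.

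In wt cells most members were expressed at a low level. The median over the 121 coding members was 4.96 CPM per kb of exon, against 30.0 CPM per kb over all 5111 coding genes. In the plot of cumulative levels, 87 of the coding members (71.9%) fell in the lowest 25% of coding genes and 8 (6.61%) lay above the median. In CPM, 28 members averaged under 1, 43 between 1 and 10, 53 between 10 and 100, and 2 reached 100 or more. Per kb, mug genes had a median of 6.72, meu genes 2.07 and mde genes 3.03 CPM.

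**Figure D1:**
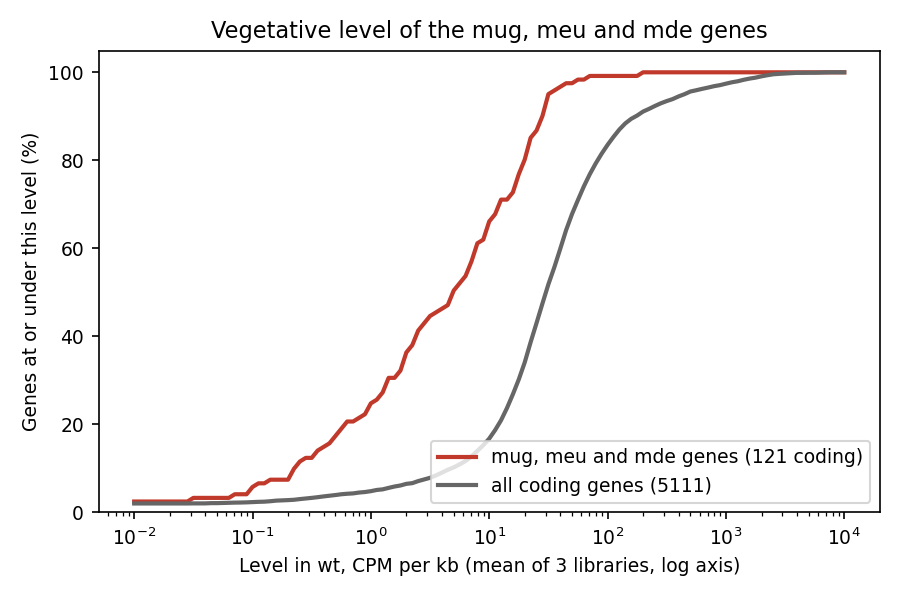
Cumulative share of genes (vertical axis, percent) against the level in wt (horizontal axis, CPM per kb of exon, mean of 3 libraries, log scale) for the 121 coding members (red) and all 5111 coding genes (grey). The members lie to the left, with medians of 4.96 and 30.0 CPM per kb.

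The members with the highest vegetative levels per kb were mug64, mug161, mug113, mug157 and mug70. The BAR domain protein gene mug64 (I:1134418-1136016) stood first, at 189.6 ± 4.53 CPM per kb (SD, n = 3), within the top 25% of coding genes, where it was the single member. The splicing factor gene mug161 followed with 63.9 ± 0.949 CPM per kb, and mug113, mug157 and mug70 had 51.7 ± 2.57, 44.5 ± 5.29 and 39.6 ± 0.844 CPM per kb. The gaps between these 5 exceeded the summed SDs except between mug113 and mug157 and between mug157 and mug70.

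At the other end, 25 members did not reach 3 reads in each wt library. The genes mug112, mug116, mug128 and meu11 had 0 reads in all 3 wt libraries, which allows at most 0.473 to 0.808 CPM, and meu11 had 0 reads in all 30. A mean of 1 CPM over the 30 libraries was reached by 105 members, 81 mug, 19 meu and 5 mde genes, and only these were tested. The 21 members left out averaged at most 0.892 CPM over the 30 libraries, and none had more than 14 reads in any library. The highest single value among them was 4.38 CPM, from 9 reads on meu31. A further 8 members averaged under 1 CPM in wt and were tested because other strains had more reads on them. They include meu3, mde5 and mug28, whose calls are given with this limit. Without the 3 ssu72Δ libraries mug28 averaged 0.737 CPM, so it was tested only through the strain in which it was called. Each other member called reached 1 CPM without the libraries of the mutant in which it was called. Among genes that reached it without the ssu72Δ libraries, 8 of 103 members were higher there (7.77%), against 2.84% of all genes.

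Most of the tested members did not pass the test in any mutant. Of the 105, 17 were called in at least 1 comparison and 88 in none. There were 22 calls in all, 20 higher and 2 lower than in wt. The largest number was in ssu72Δ, where 9 members were higher (8.57%), against 2.96% of all genes tested. In pfs2-F115H 4 members were higher (3.81%), against 2.62% of all genes. In dis2Δ the count was 3 (2.86% against 1.3%), or 2 of 104 (1.92%) with the near-copies meu3 and meu19 taken as 1 observation, in yth1-R59C 1 (0.952% against 0.677%) and in the libraries labelled ppn1Δ 1 (0.952% against 0.643%). In swd22Δ 2 members were higher and 2 lower (1.9% each), against 1.17% and 1.73% of all genes. These shares rest on few genes, and except in ssu72Δ they lay within about 2 calls of the background. Single libraries moved the member counts. In ssu72Δ 4 members were called without replicate 3 of wt. In pfs2-F115H 2 were called without its replicate 1 and 7 (5 higher, 2 lower) without its replicate 3. The count was 5 in dis2Δ without its replicate 1. Without replicate 2 of wt it was 2 in swd22Δ and 0 in the libraries labelled ppn1Δ. The shares of all genes in these fits are not given, so whether the ssu72Δ count of 4 exceeds its background is not shown. On recovered reads edgeR called 15 members higher in ssu72Δ (14.3%, against 4.4% of all genes by the same test), and DESeq2 called 11 (against 3.6% of all genes). In pfs2-F115H the counts were 2 higher and 1 lower once libraries were scaled by median of ratios, also without a share of all genes. Genes that were called lower made up 0.135% (yth1-R59C), 0.508% (pfs2-F115H), 0.508% (ssu72Δ), 0.711% (dis2Δ) and 0.0677% (libraries labelled ppn1Δ) of all genes. None of the members were called lower by limma in these 5 comparisons, where 5, 4, 6, 2 and 1 members were lower at an unadjusted p under 0.05, and edgeR and DESeq2 called 0 lower in each.

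The PAS mutants of the reporter had no member called by limma. Of all genes tested, 0.0677% were called higher and 0.22% lower in PAS-T4A, 0.0169% and 0.152% in PAS-T4C, and 0.0677% and 0.457% in PAS-T4G. At an unadjusted p under 0.05, 9 members were higher and 6 lower in PAS-T4A, 5 and 4 in PAS-T4C, and 9 and 3 in PAS-T4G. edgeR and DESeq2 each called 1 member lower in PAS-T4A and none in the other 2 strains. Without replicate 2 of wt or replicate 1 of PAS-T4A, limma called 1 lower there, and 1 lower in PAS-T4G without its replicate 1.

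**Figure D2:**
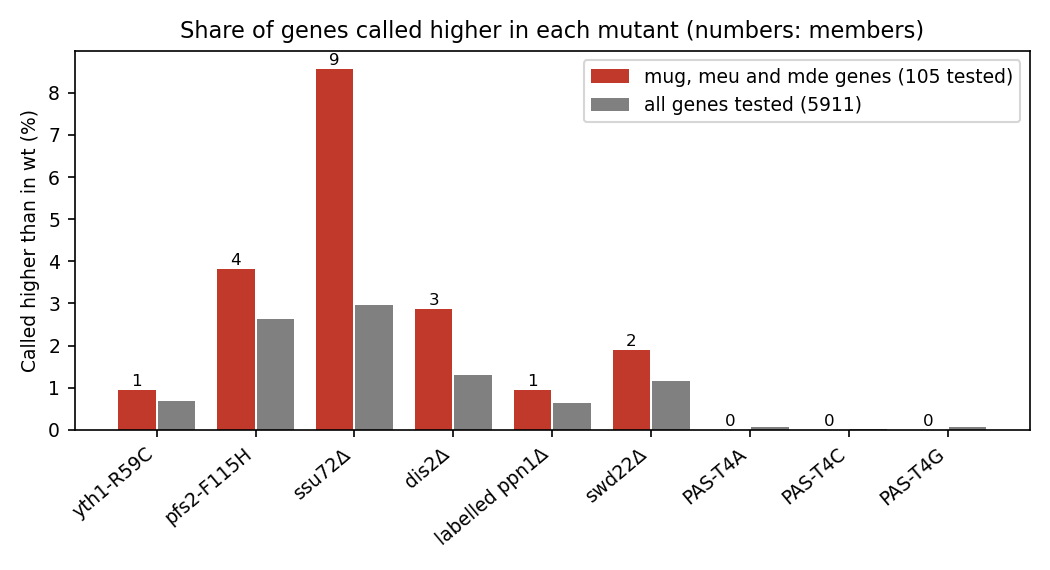
Share of genes called higher than in wt (vertical axis, percent) in each of the 9 mutants, for the 105 members tested (red, with the number of members above each bar) and all 5911 genes tested (grey). The bars stand furthest apart in ssu72Δ, at 8.57% and 2.96%.

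The typical member moved little. The median log2 fold change of the tested members was 0.22 in ssu72Δ, against 0.02 over all genes tested. It was 0.21 against 0.12 in pfs2-F115H, 0.13 against 0.09 in yth1-R59C, 0.15 against 0.09 in dis2Δ and 0.08 against −0.04 in swd22Δ. In the libraries labelled ppn1Δ it was 0.02 against 0.01, in PAS-T4A 0.05 against 0.01, in PAS-T4C 0.02 against −0.04 and in PAS-T4G 0.01 against 0.04. Median-of-ratios scaling shifted the median of all genes by −0.12 in pfs2-F115H and by less than 0.1 elsewhere. Genes with few reads were called more often: in ssu72Δ, 9.27% of all 1133 genes averaging under 10 CPM were higher, and 6 of the 46 members at that level (13%). From 10 CPM upward it was 1.47% of all 4778 genes and 3 of 59 members (5.08%).

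Over all strains, 47 of the 105 tested members (44.8%) differed by the moderated F test, against 60.1% of all genes tested. The median of the mean levels over the 30 libraries was 12.3 CPM for these members, against 44.9 CPM for all genes tested. The part of this difference in level in the F test shares was not tested. The largest F values belonged to mug64, meu18, mug125, mug33 and meu27. The wt strain had the highest mean of the 10 strains for none of the 105 members, against 4.65% of all genes tested, while pfs2-F115H had it for 23 of them (21.9%, against 24.9%) and ssu72Δ for 22 (21.0%, against 12.2%). No test was made of these shares.

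**Figure D3:**
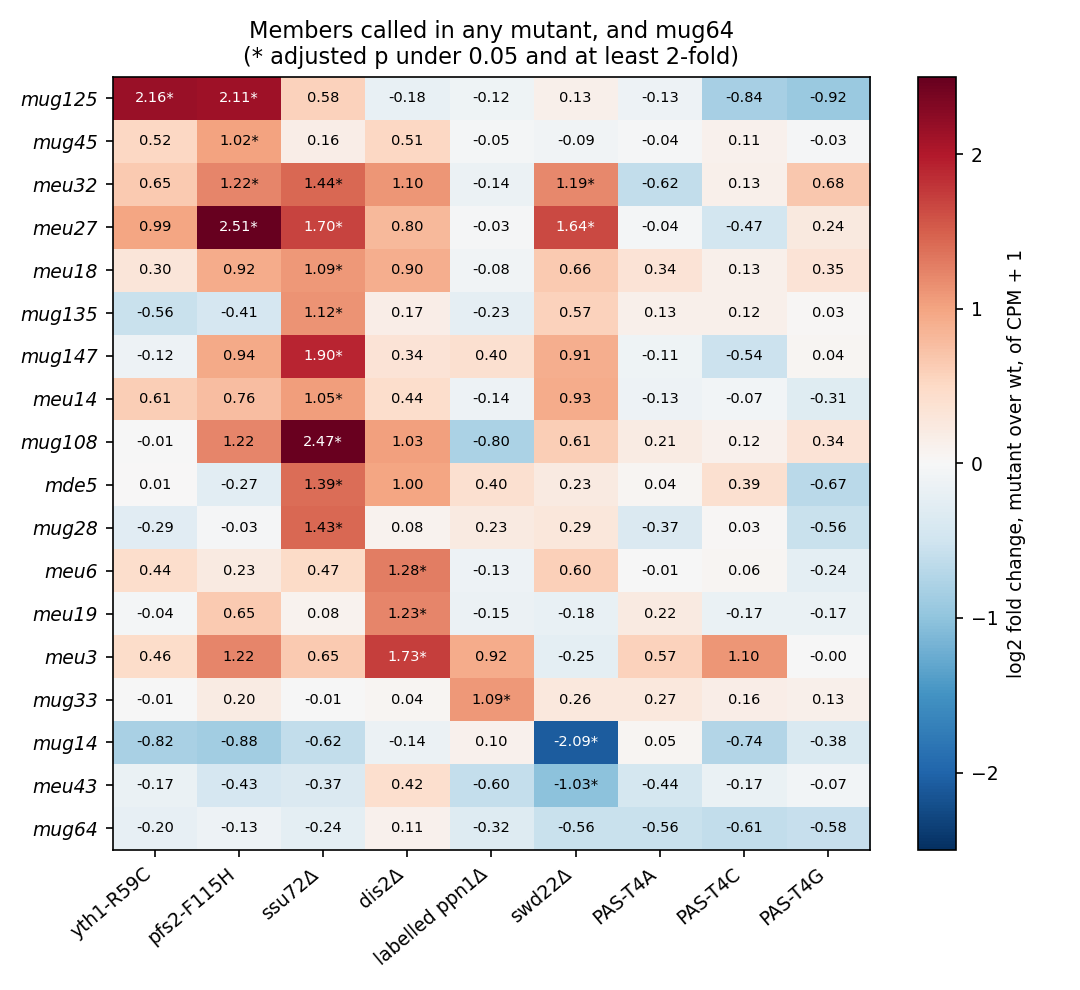
log2 fold change of CPM + 1, mutant over wt, for the 17 members called in any mutant and mug64 (rows) in the 9 mutants (columns), with asterisks at calls (adjusted p under 0.05, at least 2-fold). The ssu72Δ column holds 9 of the 22 asterisks, meu27 and meu32 carry 3 each, and mug14 has the deepest fall, −2.09 in swd22Δ.

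In ssu72Δ, which lacks a phosphatase of RNA polymerase II, the 9 members called were mug108, mug147, meu27, meu32, mug28, mde5, mug135, meu18 and meu14. The largest rise was that of mug108 (I:5124516-5125643), of undescribed function, with 10.2, 11.1 and 17.5 CPM in ssu72Δ, against 1.76, 1.26 and 1.35 CPM in wt. The groups did not overlap, although wt had at most 8 reads per library. Its log2 fold change was 2.47 ± 0.59 (SE, limma adjusted p = 0.00313). Adding 0.1 in place of 1 CPM before the log ended this call, at an adjusted p of 0.0744. In ssu72Δ mug108 was higher than in 6 of the other 8 mutants by the test of that difference. The exceptions were pfs2-F115H (limma adjusted p = 0.134) and dis2Δ (limma adjusted p = 0.0903).

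The gene mug147 (II:4104214-4105988), which the annotation names without a function, had 30.3, 34.5 and 39.0 CPM in ssu72Δ, against 10.03, 8.35 and 7.27 CPM in wt. All ssu72Δ libraries were at least 3 times as high as any wt library. Its log2 fold change was 1.90 ± 0.33 (SE, limma adjusted p = 8.55e-05). In ssu72Δ it was also higher than in each of the other 8 mutants, with adjusted p values of at most 0.0383. The antisense RNA annotated across it had 8.09 ± 0.828 CPM in ssu72Δ, against 5.40 ± 1.68 CPM in wt (log2 fold change 0.53, adjusted p = 0.247).

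Sporulation genes were among the rises in ssu72Δ. The gene meu14 (II:4066294-4067457) encodes a protein of the leading edge of the forespore membrane, and it had 8.41, 5.56 and 5.36 CPM in ssu72Δ, against 2.51, 2.99 and 2.15 CPM in wt. Its log2 fold change was 1.05 ± 0.32 (SE, limma adjusted p = 0.0182), and the call was lost without replicate 3 of wt or replicate 1 of ssu72Δ, with log2 fold changes from 0.87 to 1.15 over the replicates left out. The alpha-amylase gene mde5 (I:2538442-2540081) had 3.51, 3.71 and 4.38 CPM in ssu72Δ, against 1.505, 0.630 and 0.539 CPM in wt, which stand for only 6, 4 and 2 reads. The RNA-binding protein gene mug28 (I:1651012-1652981), which acts in sporulation, had 2.45, 5.33 and 3.41 CPM in ssu72Δ, against 1.00, 0.946 and 0.269 CPM in wt. The mug28 gene reached the 1 CPM minimum only through these ssu72Δ libraries, a choice that favours a difference, and mde5 reached it without them, at 1.20 CPM. The log2 fold changes were 1.39 ± 0.42 (mde5) and 1.43 ± 0.44 (mug28) (SE, limma adjusted p = 0.0182 and 0.0224). Leaving out a library could end either call: replicate 2 or 3 of wt or replicate 3 of ssu72Δ for mde5, and replicate 3 of wt or replicate 2 or 3 of ssu72Δ for mug28.

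The gene mug135 (III:112050-113431), named without a function, had 19.98, 23.0 and 23.9 CPM in ssu72Δ, against 11.0, 10.4 and 7.81 CPM in wt. The log2 fold change was 1.12 ± 0.30 (SE, limma adjusted p = 0.00723), and without replicate 3 of wt it fell under the 2-fold minimum, at 0.99.

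Below the 2-fold minimum, 6 more members were higher in ssu72Δ at the adjusted p, which made 15 (14.3%) against 8.27% of all genes, and 3 were lower (2.86%) against 8.49%. The 6 were meu7, mug163, meu1, mde6, mug191 and mug170 (log2 fold changes from 0.94 to 0.41), and the 3 lower were mde1 (−0.61), mug56 (−0.33) and mug64 (−0.24).

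Markers of other cell states were examined beside the counts. Of 10 stress genes 5 were higher in ssu72Δ (gpd1, hsp9, hsp16, zym1 and cta3), where 2.96% of all genes were higher. The summed level of the 10 was 1949.8 to 2581 CPM in ssu72Δ, against 1079.9 to 1439 CPM in wt. In dis2Δ and in swd22Δ cta3 alone was called higher, against 1.3% and 1.17% of all genes. The summed level of the 10 was under that of wt in dis2Δ, at 856.2 to 970.2 CPM, with a median log2 fold change of −0.32, against 0.09 over all genes. It was also under wt in PAS-T4C (917.7 to 1026.5 CPM) and PAS-T4G (932.7 to 1049.4 CPM). In swd22Δ it was 1318.3 to 1505.9 CPM, which overlapped with wt. Of the 7 starvation genes none was higher in any mutant, while fbp1 was lower in dis2Δ and swd22Δ and inv1 in swd22Δ. Over all genes, 0.711% were lower in dis2Δ and 1.73% in swd22Δ. Of the 5 mating genes tested (mfm2, mam1, mam2, ste6 and fus1) none was higher in any mutant. Of these, mam2 was lower in swd22Δ and PAS-T4G, against 1.73% and 0.457% of all genes. The part of the stress response in the ssu72Δ counts was not tested.

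The gene meu18 (II:1158594-1160295) was the most abundant of the members called in ssu72Δ. It had 100.6, 106 and 119 CPM there, against 53.2, 49.0 and 49.6 CPM in wt, so that all libraries were well apart. Its log2 fold change was 1.09 ± 0.12 (SE, limma adjusted p = 7.89e-08). Smaller rises passed the adjusted p under the 2-fold minimum in pfs2-F115H (97.0 ± 11.6 CPM, log2 fold change 0.92), dis2Δ (95.8 ± 9.84 CPM, 0.90) and swd22Δ (80.6 ± 3.65 CPM, 0.66). In ssu72Δ meu18 was higher than in 6 of the other 8 mutants by the test of that difference, with pfs2-F115H and dis2Δ the exceptions.

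The neighbours of meu18 moved otherwise. The adenine synthesis gene ade7, which ends 169 bases before meu18 on the same strand, had 142 ± 4.58 CPM in ssu72Δ, against 197 ± 15.8 CPM in wt (log2 fold change −0.47). The antisense RNA across meu18 fell to 6.70 ± 2.29 CPM in ssu72Δ, against 14.9 ± 0.835 CPM in wt (SD, n = 3), a log2 fold change of −1.09 (limma adjusted p = 0.000396). In pfs2-F115H, where meu18 was also higher, the antisense RNA had 15.6 ± 1.86 CPM. Any part of either neighbour in the level of meu18 was not tested.

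The genes meu27 and meu32 were the members called in 3 comparisons, pfs2-F115H, ssu72Δ and swd22Δ. These comparisons share the wt libraries. The gene meu27 (III:1061503-1064195) had 14.5, 11.3 and 12.4 CPM in pfs2-F115H, 5.96, 9.04 and 5.84 CPM in ssu72Δ, and 8.91, 4.85 and 6.37 CPM in swd22Δ, against 2.01, 1.58 and 0.808 CPM in wt. No library of these mutants overlapped with wt. The log2 fold changes were 2.51 ± 0.38 in pfs2-F115H (limma adjusted p = 1.06e-05), 1.70 ± 0.38 in ssu72Δ (adjusted p = 0.00145) and 1.64 ± 0.38 in swd22Δ (adjusted p = 0.00183). The libraries labelled ppn1Δ had 1.39 ± 0.445 CPM and the PAS mutants averaged 1.03 to 1.95 CPM. The pfs2-F115H level was higher than in 6 of the other 8 mutants by the test of that difference, with ssu72Δ and swd22Δ the exceptions.

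The gene meu32 (I:1621639-1622887) begins 22 bases behind rib1 on the same strand. It had 11.5, 9.15 and 4.24 CPM in pfs2-F115H, 8.06, 9.74 and 9.74 CPM in ssu72Δ, and 7.001, 10.7 and 5.79 CPM in swd22Δ, against 4.26, 2.84 and 1.62 CPM in wt. The lowest pfs2-F115H library lay just under the highest wt library, while the other 2 mutants did not overlap with wt. The log2 fold changes were 1.22 ± 0.40 in pfs2-F115H (limma adjusted p = 0.0305), 1.44 ± 0.40 in ssu72Δ (adjusted p = 0.011) and 1.19 ± 0.40 in swd22Δ (adjusted p = 0.0313). All 3 calls were lost at a pseudocount of 0.1 or 4 CPM and without replicate 3 of wt, and the call in swd22Δ or pfs2-F115H also without replicate 2 of wt or replicate 1 or 2 of the mutant. The upstream gene rib1 had log2 fold changes from 0.05 to 0.29 over the 9 mutants.

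The gene mug125 (I:1086242-1087276), of undescribed function, was the member called in both mutants of the poly(A) polymerase module. It had 38.1, 30.1 and 38.03 CPM in yth1-R59C and 37.5, 38.2 and 27.5 CPM in pfs2-F115H, against 6.02, 7.41 and 8.08 CPM in wt. All 6 mutant libraries were more than 3 times as high as any wt library. The log2 fold changes were 2.16 ± 0.34 in yth1-R59C (limma adjusted p = 9.08e-05) and 2.11 ± 0.34 in pfs2-F115H (adjusted p = 3.62e-05). The difference between these 2 strains was 0.05 on the log2 scale (adjusted p = 0.975), and each was higher than all 7 other mutants by the test of that difference. The other strains averaged 3.69 (PAS-T4C) to 11.3 CPM (ssu72Δ). Both calls held under all 16 alternatives tried.

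The gene lag1, a ceramide synthase gene on the same strand, ends 166 bases before mug125. The stretch between them holds 1 AAUAAA hexamer (AATAAA as DNA), which begins 13 bases behind the annotated end of lag1. Whether this hexamer serves as the signal of lag1, whose annotated end lies before it, was not tested. It is shown in capitals because the human homologues of Yth1 and Pfs2 are the proteins that bind AAUAAA.
lag1 to mug125, I:1087425-1087430, minus strand: atttaatgttcgAATAAAatttattcactt
The sense hexamer occurred in the 300-base promoter window of 44.4% of the members and 36.8% of all coding genes. The level of lag1 itself was 149 ± 11.4 CPM in yth1-R59C and 145 ± 8.23 CPM in pfs2-F115H, against 145 ± 6.98 CPM in wt (log2 fold changes 0.04 and 0.00). Whether reads on mug125 continue from lag1 was not tested, since the table holds 1 value per gene.

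The remaining call in pfs2-F115H was mug45 (II:3638417-3640971), whose RNA holds 5 TTAAAC hexamers, the most of any member. It had 49.0, 44.6 and 50.3 CPM in pfs2-F115H, against 25.1, 21.8 and 22.9 CPM in wt. Its log2 fold change was 1.02 ± 0.19 (SE, limma adjusted p = 0.000174), so close to the 2-fold minimum that median-of-ratios scaling, edgeR, DESeq2 and a pseudocount of 4 CPM put it just under. It was below that minimum also without replicate 2 of wt or replicate 1 or 3 of pfs2-F115H. The carbonic anhydrase gene nce103, which overlaps mug45 on the other strand, had 422 ± 42.4 CPM in pfs2-F115H, against 619.6 ± 73.4 CPM in wt. Counting used the strand of the reads.

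A further 11 members passed the adjusted p in pfs2-F115H with rises of less than 2-fold, which made 15 higher (14.3%) and 1 lower (0.952%), against 14.1% and 4.86% of all genes. They included mug147 (log2 fold change 0.94), the muskelin gene mde6 (0.72) and the monopolin subunit gene mde4 (0.63). The member that was lower was mug35, with 17.9 ± 4.30 CPM, against 33.8 ± 6.85 CPM in wt (log2 fold change −0.89). In yth1-R59C the arrestin family gene mug170 was added in this way, with 55.2 ± 4.52 CPM, against 34.6 ± 6.14 CPM in wt (0.67), which made 2 higher (1.9%) and 0 lower, against 2.84% and 1.02% of all genes.

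In swd22Δ the largest change of any member was a fall. The gene mug14 (II:128610-129742), annotated as an adducin of the actin cytoskeleton, had 6.36, 3.88 and 8.10 CPM in swd22Δ, against 31.6, 34.4 and 20.7 CPM in wt. The groups lay far apart, with 4 to 14 reads per swd22Δ library and 77 to 218 reads per wt library. This was a log2 fold change of −2.09 ± 0.36 (SE, limma adjusted p = 6.23e-05), and it remained a call under all 16 alternatives. In swd22Δ mug14 was also lower than in each of the other 8 mutants (adjusted p of at most 0.013). The gene varied in the other strains too, from 15.5 ± 4.92 CPM in pfs2-F115H to 31.8 ± 16.6 CPM in PAS-T4A.

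The other fall in swd22Δ was slight. The gene meu43 (I:2330810-2332240) had 1.91, 0 and 1.16 CPM in swd22Δ, against 4.26, 2.21 and 2.15 CPM in wt, and the swd22Δ libraries held 3, 0 and 2 reads. Its log2 fold change was −1.03 ± 0.37 (SE, limma adjusted p = 0.0447), and the call was lost in 10 of 15 alternatives, among them edgeR (adjusted p = 0.139) and DESeq2. It was also lost without any 1 of the wt libraries and without replicate 2 or 3 of swd22Δ. Below the 2-fold minimum, 6 more members were lower in swd22Δ at the adjusted p, which made 8 (7.62%) against 12.9% of all genes, and 5 were higher (4.76%) against 7.17%.

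In dis2Δ, which lacks a protein phosphatase of the PP1 family, the 3 members called were meu6, meu19 and meu3, the last a near-copy of meu19. Each had GTAAACA in the promoter, as did 51 of the 105 members tested (48.6%), and the windows of the near-copies are nearly the same. The pleckstrin homology domain gene meu6 (II:454161-456553) had 18.6, 14.6 and 15.7 CPM in dis2Δ, against 7.02, 5.67 and 5.66 CPM in wt. All dis2Δ libraries were at least 2 times the highest wt library. This was a log2 fold change of 1.28 ± 0.24 (SE, limma adjusted p = 0.000322). It was a call under all 15 alternatives, and meu6 was higher in dis2Δ than in each of the other 8 mutants (adjusted p of at most 0.0345).

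The noncoding meu19 (III:2419051-2419799) had 11.6, 11.3 and 15.0 CPM in dis2Δ, against 6.02, 4.73 and 3.77 CPM in wt, a log2 fold change of 1.23 ± 0.28 (SE, limma adjusted p = 0.00274). Its near-copy meu3 (III:41985-42728) had 2.57, 8.48 and 3.74 CPM in dis2Δ, against 0, 1.42 and 0.808 CPM in wt, where it held 0, 9 and 3 reads. The log2 fold change of meu3 was 1.73 ± 0.46 (SE, limma adjusted p = 0.0106), and the call was lost without replicate 2 of dis2Δ or replicate 1 of wt. Only uniquely mapped reads were counted, so these values rest on the stretches in which the copies differ, and they are taken as 1 uncertain observation. Below the 2-fold minimum mde6 (0.56) and meu18 (0.90) were added, which made 5 higher (4.76%) and 0 lower, against 7.24% and 4.8% of all genes.

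**Figure D4:**
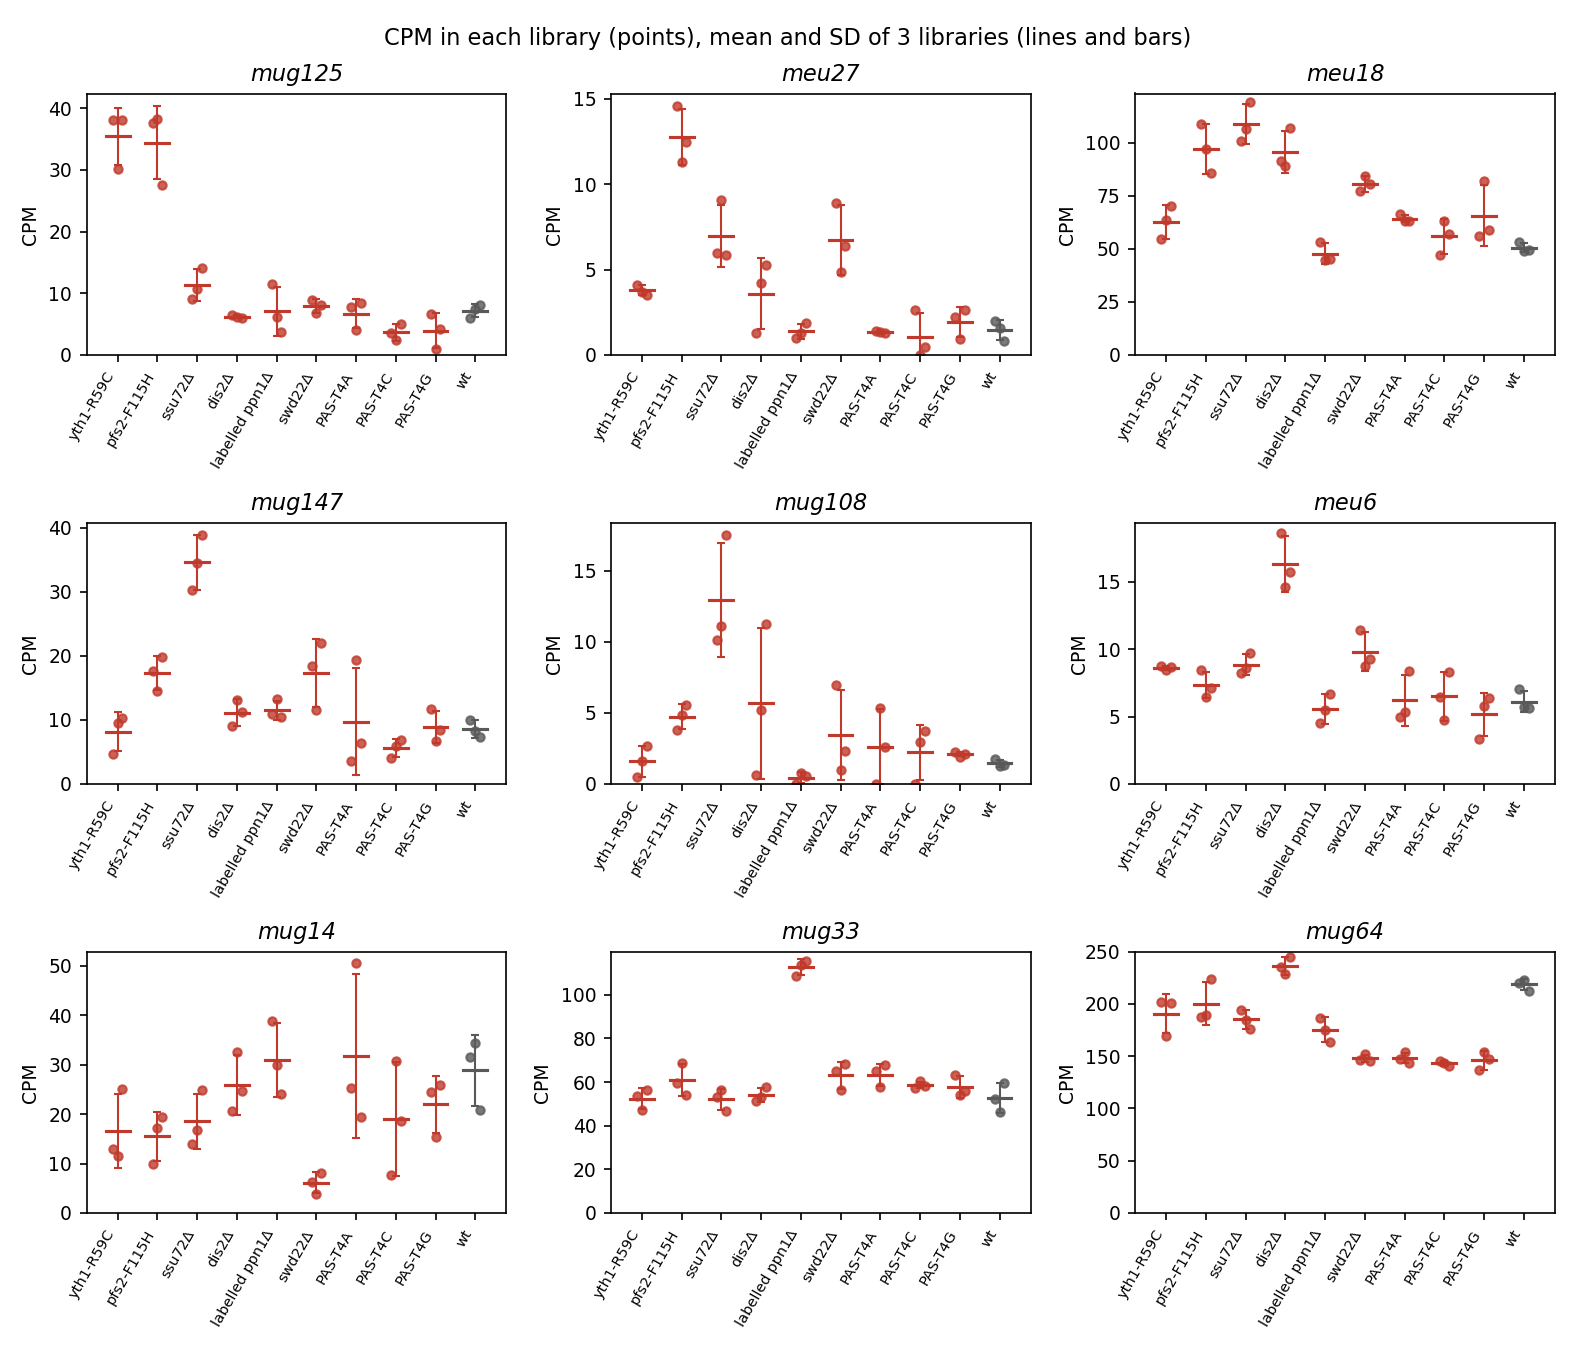
CPM (vertical axes) of 9 members in each of the 30 libraries, by strain (horizontal axes, wt at the right in grey), with the mean and SD of 3 libraries. The high groups are yth1-R59C and pfs2-F115H for mug125, ssu72Δ for mug147, dis2Δ for meu6 and the libraries labelled ppn1Δ for mug33, and mug14 is low in swd22Δ. The mug108 level in ssu72Δ did not differ from that in pfs2-F115H or dis2Δ by the test of that difference.

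In the libraries labelled ppn1Δ, mug33 (III:2047579-2049286) had 109, 114 and 116 CPM, against 52.4, 46.2 and 59.8 CPM in wt. The log2 fold change was 1.09 ± 0.11 (SE, limma adjusted p = 4.17e-09), and without replicate 2 of wt it was 0.996, just under the 2-fold minimum. All other mutants had mug33 at a lower level than these libraries (adjusted p of at most 1.72e-06). This call was not a matter of mug33 alone. Of the 88 genes tested between ppn1 and mrpl17, a stretch of 196 kb on chromosome III chosen after its values were seen, 87 had a log2 fold change above 0, with a median of 0.96. For the 72 of them at 10 CPM or more, the median was 1.00 with quartiles of 0.86 and 1.10. The 30 tested genes on either side had medians of 0.07 and 0.04, and the stretch had medians from 0.02 to 0.10 in the other 8 mutants. It held 37 of the 38 genes called higher in these libraries. The overlapping septation gene cdc11 on the other strand of mug33 rose by 1.15 on the log2 scale as well, and the only other tested member in the stretch, the noncoding meu20, had 4.14 ± 1.78 CPM, against 2.68 ± 0.730 CPM in wt (0.43, adjusted p = 0.84). At the adjusted p alone, mug33 was the 1 member higher (against 1.39% of all genes) and mug64 the 1 lower (−0.32, against 1.05%).

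**Figure D5:**
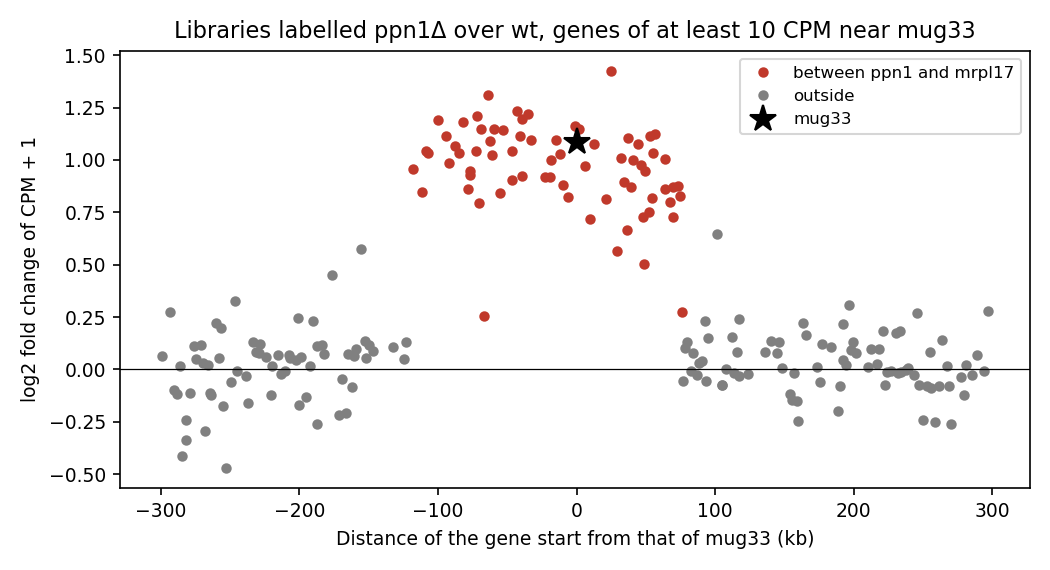
log2 fold change of CPM + 1 in the libraries labelled ppn1Δ over wt (vertical axis) against the distance of each gene's start from that of mug33 in kb (horizontal axis), for genes of at least 10 CPM. Genes between ppn1 and mrpl17 (red) have a median of 1.00, and mug33 (star) lies among them at 1.09.

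In the PAS mutants the clearest value was that of mug64, the most abundant member. It had 147, 154 and 144 CPM in PAS-T4A, 145, 144 and 141 CPM in PAS-T4C, and 137, 154 and 147 CPM in PAS-T4G, against 220.5, 223 and 213 CPM in wt. No library of these strains reached the lowest wt library. The log2 fold changes were −0.56 ± 0.08, −0.61 ± 0.08 and −0.58 ± 0.08 in PAS-T4A, PAS-T4C and PAS-T4G. The swd22Δ libraries were as low, with 146, 152 and 145 CPM (−0.56 ± 0.08), while dis2Δ had 236 ± 8.20 CPM. These falls passed the adjusted p but were under the 2-fold minimum.

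Among the other values that passed the adjusted p alone in the PAS mutants, the transporter gene mug73 was lower in PAS-T4A, with 6.10 ± 2.09 CPM, against 12.6 ± 1.91 CPM in wt (−0.96 ± 0.22), and edgeR called it. The genes mug161, mug89 and mug122 were between 0.26 and 0.36 higher in 2 of these strains each. In all, 3 members were higher and 2 lower in PAS-T4A, against 3.28% and 4.06% of all genes. The counts were 1 and 1 in PAS-T4C, against 1.18% and 2.59%, and 2 and 1 in PAS-T4G, against 4.35% and 4.53%.

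The genes with an mde name were of very unequal level in wt. They were taken by name. Whether each of them, such as the methionine salvage gene mde1, was named for dependence on Mei4 was not checked. The double-strand break gene mde2 had 0.0836 ± 0.145 CPM, the kinase gene mde3 0.0525 ± 0.0910 CPM and the RNA-binding protein gene mde7 0.303 ± 0.397 CPM (SD, n = 3), with at most 3 reads in any wt library. They were not tested. The ADAM peptidase gene mde10 had 36.7 ± 3.58 CPM, mde1 28.6 ± 2.73 CPM, mde4 23.3 ± 1.83 CPM and mde6 17.8 ± 1.32 CPM. Of the 5 tested, mde5 alone was called, in ssu72Δ. The gene mde1 moved the other way, with log2 fold changes of −0.61 in ssu72Δ and −0.56 in swd22Δ, both past the adjusted p. The log2 fold change of mde10 stayed between −0.25 and 0.20.

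The spore wall and forespore membrane group was made up of meu10, meu14, meu7, meu17, mde5 and mde10. It did not include mug56, which is annotated as a spore wall assembly protein and went the other way in ssu72Δ. There mug56 had 79.7 ± 14.8 CPM, against 99.1 ± 4.28 CPM in wt (log2 fold change −0.33, limma adjusted p = 0.034). The values of the group are therefore not those of all spore wall genes among the members. Of its 5 tested members, meu14 and mde5 were called in ssu72Δ, where 2.96% of all genes were higher, and none in another mutant. The median log2 fold change of the 5 was 0.94 in ssu72Δ, against 0.02 over all genes, and 0.44 in dis2Δ, against 0.09. Of the 5, 4 averaged under 10 CPM, and all genes at that level had medians of 0.27 in ssu72Δ and 0.17 in dis2Δ. The amylase gene meu7 was just under the minimum there, with 10.3 ± 2.51 CPM, against 4.97 ± 1.89 CPM in wt (0.94, adjusted p = 0.021). The summed level of the 6 genes was 57.3 to 70.1 CPM in the ssu72Δ libraries, against 45.6 to 49.2 CPM in wt, and most of it was mde10. The glucosidase gene meu17 had 0.399 ± 0.210 CPM in wt and was not tested.

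Other roles gave fewer calls. In recombination and pairing, meu13 (the Hop2 homologue) had 1.23 ± 0.123 CPM in wt and log2 fold changes between −0.74 and 0.51, with no call. Of the 3 genes taken as RNA-binding, mug28 was called in ssu72Δ with the limit given above, mug24 ranged between 0.00 and 0.87 with no call, and mde7 was not tested. The meiosis-specific kinase gene mug27 had 0.504 ± 0.0330 CPM in wt and was not tested. The gene mug58, which had been listed with the kinases, is annotated as a glycerate kinase, a metabolic enzyme, and its log2 fold changes lay between −0.26 and 0.17.

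The Mmi1 target genes mug8, mug9 and mug10 had no call in any mutant. Their transcripts held 3, 2 and 4 TTAAAC hexamers. Over all members, 10 (7.94%) held at least 3, against 6.91% of coding genes. The level of mug8 was 41.0 ± 0.815 CPM in wt, that of mug9 6.46 ± 1.87 CPM and that of mug10 3.94 ± 1.03 CPM. The highest log2 fold change was that of mug9 in pfs2-F115H, 0.82, with 11.9 ± 0.692 CPM, against 6.46 ± 1.87 CPM in wt (limma adjusted p = 0.056). The mmi1 mRNA itself was lower, though under the 2-fold minimum, in ssu72Δ, with 94.6 ± 6.40 CPM, against 119.8 ± 14.1 CPM in wt (log2 fold change −0.33, limma adjusted p = 0.030). It was lower by a similar amount in swd22Δ, at 97.0 ± 10.4 CPM (−0.30, limma adjusted p = 0.045).

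Other genes of meiosis were set beside the members. Of 19 early meiosis genes tested, 3 were higher in pfs2-F115H (mei4, mcp7 and rec15), where 2.62% of all genes were higher. In ssu72Δ 1 was higher and 1 lower (dmc1 and rec12), against 2.96% and 0.508% of all genes. In swd22Δ mei2 was lower, against 1.73% of all genes. In wt dmc1 averaged 0.331 CPM and rec15 0.705 CPM, each with as few as 1 read in a library. Under the 2-fold minimum, 2 regulators of entry into meiosis were past the adjusted p in ssu72Δ. The mRNA of mei2, which encodes an RNA-binding protein that starts meiosis, had 14.0 ± 6.35 CPM in ssu72Δ, against 26.0 ± 1.17 CPM in wt (log2 fold change −0.92, limma adjusted p = 0.017). That of the transcription factor Ste11 (ste11) had 21.4 ± 3.10 CPM in ssu72Δ, against 35.4 ± 6.98 CPM in wt (−0.69, limma adjusted p = 0.0046). The mei4 mRNA, which encodes the factor that reads FLEX, had 33.6 ± 4.83 CPM in pfs2-F115H and 27.9 ± 2.38 CPM in yth1-R59C, against 15.5 ± 2.11 CPM in wt. Its log2 fold changes were 1.07 ± 0.18 (pfs2-F115H) and 0.82 ± 0.18 (yth1-R59C, under the 2-fold minimum), while in ssu72Δ and dis2Δ they were 0.08 and 0.20. Of 12 middle and late genes tested, 4 were higher in pfs2-F115H (crs1, atf31, spn5 and spn6), against 2.62% of all genes. In ssu72Δ 2 were higher (rsv2 and atf31, against 2.96%) and in dis2Δ 2 (spo6 and atf31, against 1.3%). In swd22Δ isp3 was lower (against 1.73%). In wt spn6 averaged 1.02 CPM and atf31 2.35 CPM, with as few as 3 and 4 reads in a library.

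The FLEX core GTAAACA was about as frequent among the members called as among the others. It was in 8 of the 17 called (47.1%) and in 43 of the 88 tested and not called (48.9%). In ssu72Δ the median log2 fold change was 0.27 for the 51 tested members with it and 0.20 for the 54 without it, and over all coding genes 0.01 and −0.01. In dis2Δ the medians were 0.11 and 0.18.

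Some members lie inside other genes. A coding gene on the other strand enclosed 18 of the 126 members entirely (14.3%), against 200 of all 5111 coding genes (3.91%). Among them were meu27 inside the checkpoint kinase gene chk1, meu6 inside the histone methyltransferase gene clr4, mug108 inside rga3, mug28 inside mrp17 and mde5 inside SPAC4A8.02c. Of the mde genes, 4 were enclosed. In ssu72Δ, 5 of the 178 enclosed coding genes tested were called higher (2.81%), about the share of all genes tested (2.96%). Of these 5, 4 were members (meu27, mug108, mde5 and mug28, the last tested only through the ssu72Δ libraries). Among the members tested, 4 of the 11 enclosed were called higher there (36.4%), against 5 of the 94 others (5.32%). These shares rest on few genes with few reads in wt, and no test was made of them. The enclosing genes had log2 fold changes of −0.06 (chk1), 0.15 (rga3), 0.09 (SPAC4A8.02c) and 0.07 (mrp17) in ssu72Δ, and clr4 had 0.15 in dis2Δ.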

How the data were processed

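Total RNA libraries of 10 strains were grouped by the strain and replicate in the sample titles. The 7 small RNA samples were not analysed here. The authors deposited CPM (counts per 1000000 reads counted in a library) for 6996 features. The authors had mapped single-end reads of 50 bases with STAR (version 2.7.3a, per the submitters' processing notes, on ASM294) and had counted uniquely mapped reads per PomBase gene, by strand, without reads that overlap several genes, so RNAs with near-identical copies are undercounted. In each library 100% of the values were whole multiples of 1 read (within 0.05 reads), so reads were recovered.

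The main fit was that of limma (version 3.58.1, in R version 4.3.3) to log2(CPM + 1) over all 30 libraries (20 residual degrees of freedom, variance trend, Benjamini-Hochberg adjustment per comparison), after genes averaging under 1 CPM had been dropped. Fold changes on this scale understate those of genes with few reads. Alternatives were other pseudocounts, filters and scalings, a fit over 2 strains, a replicate block, no minimum change, replicates left out, and edgeR (version 4.0.16) and DESeq2 (version 1.42.0) on recovered reads. On simulated ssu72Δ data, limma found 189 of 200 genes changed by 1.5 on the log2 scale (94.5%), with 0 false calls in 5825 genes tested, changed ones included. The simulation gave every gene the same dispersion and changed no gene of the lowest wt levels. These figures therefore do not cover members with few reads or the uneven noise between the real replicates. The labels do not say whether replicates were separate cultures, so p-values measure the spread between these samples only. For a single gene, an exact permutation test of 3 libraries against 3 cannot go below p = 0.1.

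Positions, exon lengths, promoters and sequences come from RefSeq ASM294v3, to which 6850 features and all 126 members were matched by identifier. The members and gene lists were chosen with earlier results of these data known. Members named are the 5 highest in wt per kb, the 3 largest rises and falls per comparison among calls without overlap, those called at least 3 times, the 5 largest F values, all mde genes and those in the role lists, with neighbours of members described in full. The other members called or past the adjusted p, the stretch around mug33, the mmi1 mRNA and the enclosing genes were chosen after their values were seen.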

Additional observations from a re-analysis of the deposited data

How the results depend on the processing

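Of the 22 called changes, none turned its direction in any alternative, 7 kept their call in all 15 or 16 alternatives, and edgeR and DESeq2 each kept 20. With no minimum change, the members past the adjusted p were 2 in yth1-R59C, 16 in pfs2-F115H, 18 in ssu72Δ, 5 in dis2Δ, 2 in the libraries labelled ppn1Δ, 13 in swd22Δ, 5 in PAS-T4A, 2 in PAS-T4C and 3 in PAS-T4G. A pseudocount of 4 CPM gave 2 in pfs2-F115H, 3 in ssu72Δ, 1 in dis2Δ and 1 in swd22Δ, and a minimum mean of 10 CPM, under which fewer members were tested, gave 2, 3, 0 and 1 there. A pseudocount of 0.1 CPM gave 2 in PAS-T4A and no filter gave 1. The fit over 2 strains gave 7 in pfs2-F115H. edgeR gave 15 in ssu72Δ and 1 in PAS-T4A, and DESeq2 gave 1 in PAS-T4A; the cause was not tested for any of these. Over all genes, edgeR called 299 in ssu72Δ against 205 by limma, 77 against 48 in yth1-R59C, and 18 against 10 in PAS-T4C, and DESeq2 called 18 in PAS-T4G against 31 by limma. Leaving out single replicates gave 2 to 7 members in pfs2-F115H, 4 to 10 in ssu72Δ (4 without replicate 3 of wt), 2 to 5 in dis2Δ, 0 to 1 in the libraries labelled ppn1Δ, 2 to 5 in swd22Δ, 0 to 1 in PAS-T4A and 0 to 1 in PAS-T4G. The fit without the libraries labelled ppn1Δ, added after seeing the data, gave 3 in swd22Δ and the same counts elsewhere. Counting only members that reached 1 CPM without the libraries of the mutant, also chosen after seeing the data, gave 8 in place of 9 in ssu72Δ and the same counts elsewhere. Same-numbered replicates of a mutant and wt correlated between −0.17 and 0.20, in no comparison all above 0.1, and the main fit did not pair them. With 3 libraries per strain these values cannot show whether replicates of the same number shared a batch. A replicate block kept all 22 calls and gave 5 members in place of 4 in pfs2-F115H. No share of all genes is given for the other pseudocounts, the other filters or the fit over 2 strains. The same holds for the left-out libraries and the replicate block, so the member counts there are not set against a background. The F test gave 32 members (minimum of 10 CPM) to 51 (no filter), against 47. Depth limits the lowest members most, since 25 of the 126 had fewer than 3 reads in some wt library.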

Other observations

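Antisense RNAs were annotated across 24 of the members, in 26 pairs, and in wt the antisense strand had the higher level per kb in 15 of the pairs. The meu26 antisense RNA had 12.7 CPM per kb, against 0.102 CPM per kb for meu26 (16.0 and 0.105 CPM). The meu17 antisense RNA had 10.9 CPM per kb, against 0.254 CPM per kb for meu17, and that of meu14 had 8.29 CPM per kb, against 2.27 CPM per kb for meu14. In ssu72Δ, where meu14 was higher, the meu14 antisense RNA had 16.2 ± 2.51 CPM, against 13.7 ± 2.51 CPM in wt (log2 fold change 0.23, limma adjusted p = 0.558). Any part of the antisense RNA in the level of meu14 was not tested. The sense strand was the higher one for 11 pairs, among them those of meu18, mug147, mug30 and mug74.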
